A study of Mus musculus with 4 samples.

Results

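The nuclear-encoded subunits of the 5 complexes of oxidative phosphorylation were followed in adipocyte progenitor cells sorted from mice with and without an Adamts1 transgene. Members were the probes whose gene name in the array design matched the Nduf a, b, c, s and v series (complex I), Sdha to Sdhd (complex II), the Uqcr series (complex III), the Cox4 to Cox8 series (complex IV) and the Atp5 series (complex V). These patterns took 119 of 55681 probes and 84 of 47866 features, 36 of them in complex I, 4 in complex II, 8 in complex III, 19 in complex IV and 17 in complex V. The patterns use names and no measured value. They also took 4 genes that are not structural subunits: Cox4nb, now called Emc8, a part of an endoplasmic reticulum membrane complex, Atp5s (now Dmac2l), Atp5sl (now Dmac2), and Cox7a2l, which joins complexes III and IV into supercomplexes. Ndufa4, named for complex I, was later assigned to complex IV.

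Complexes I to IV pass electrons from NADH and succinate to oxygen, complexes I, III and IV pump protons across the inner mitochondrial membrane as they do so, and complex V, the ATP synthase, lets the protons return to make ATP. Most subunits are encoded in the nucleus and imported, and a few are encoded by mitochondrial DNA. In fat, respiratory capacity rises as progenitors become adipocytes, and brown adipocytes use the chain to make heat through the uncoupling protein Ucp1.

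The cells were isolated by flow cytometry from the subcutaneous depots of male, 4-week-old mice of the FVB strain and were lysed with no culture and no treatment. The wild-type group and the Adamts1 transgenic group had 2 samples each, every sample on 1 single-colour Agilent array. Adamts1 encodes a metalloprotease that cells secrete into the matrix, where it cuts proteoglycans, and the sources used here do not give the promoter that drives the transgene. The labels do not say whether samples came from separate animals or from pools, and the p-values therefore rest on the spread between the arrays alone, which may be technical. An exact permutation test of 1 gene with 2 arrays a group has 0.333 as its smallest p.

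Values are log2 processed signal relative to the array's own 75th percentile, so a value of 0 lies at that percentile, and differences are transgenic minus wild-type. They were tested with limma over all 24518 features above background, and a gene was called at an adjusted p under 0.05. Wild-type array 1 stood apart in signal: 47.0% of its spots were well above background, against 55.5% for the second wild-type array and 57.0% and 56.0% for the transgenic pair. The Adamts1 probe read 6.65 and 6.73 on the wild-type arrays and 6.77 and 6.82 on the transgenic arrays, a difference of 0.11 ± 0.09 (SE, n = 2 per group) with an adjusted p of 0.573. Whether that probe reads the transgene's RNA was not tested. All 9 progenitor markers were tested and 0 were called, with 5 at an unadjusted p under 0.05, against 19.0% of all features. Dlk1 was above background on 1 of the 2 wild-type arrays. The marker groups were apart in both directions, 5 lower and 3 higher, against groups apart for 53.1% of all features. Cd34, Ly6a, Dcn, Col1a1 and Itgb1 were lower on the transgenic arrays (Ly6a at -0.41, adjusted p = 0.163, and Cd34 at -0.39, adjusted p = 0.175), and Dlk1, Lum and Pdgfrb were higher (0.93, 0.36 and 0.40). Pdgfra, the receptor by which these cells are often defined, read 5.23, 5.32, 5.28 and 5.42 in the order wild-type 1 and 2, transgenic 1 and 2, with overlapping groups.

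Promoters of 5 complex IV subunits are shown because the isoforms of this complex showed the widest differences among the subunits. They set the broadly used Cox6a1, Cox8a and Cox7a2 beside Cox8b and Cox7a1, which are used in heart, skeletal muscle and brown fat. Each stretch runs 5′ to 3′ on the gene's strand from 250 bases before the start of transcription to 30 after it, from RefSeq on GRCm38.p6. The positions are chr5:115348929-115349208 on the minus strand for Cox6a1, chr19:7217587-7217866 on the minus strand for Cox8a, chr9:79759824-79760103 on the minus strand for Cox7a2, chr7:140900417-140900696 on the minus strand for Cox8b and chr7:30183921-30184200 on the plus strand for Cox7a1. Capitals mark matches to the 6 motifs that were searched on both strands: NRF-1 (GCGCA and GCGC with any 1 base between), the ETS family (CCGGAAG), the TATA box (TATAAA), the CCAAT box (CCAAT), the GC box (GGGCGG) and the extended half-site of oestrogen-related receptors (TNAAGGTCA).
Cox6a1: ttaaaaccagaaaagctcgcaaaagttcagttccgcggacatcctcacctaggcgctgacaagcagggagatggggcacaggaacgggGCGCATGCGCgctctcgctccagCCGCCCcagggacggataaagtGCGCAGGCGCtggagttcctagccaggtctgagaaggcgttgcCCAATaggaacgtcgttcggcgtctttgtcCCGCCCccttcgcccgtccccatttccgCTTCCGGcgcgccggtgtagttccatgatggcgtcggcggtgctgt
Cox8a: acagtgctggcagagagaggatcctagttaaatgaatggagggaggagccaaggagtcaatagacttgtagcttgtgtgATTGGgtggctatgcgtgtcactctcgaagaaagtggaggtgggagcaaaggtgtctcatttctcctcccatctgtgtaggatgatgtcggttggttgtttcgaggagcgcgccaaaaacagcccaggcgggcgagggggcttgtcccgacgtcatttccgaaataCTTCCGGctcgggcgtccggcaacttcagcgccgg
Cox7a2: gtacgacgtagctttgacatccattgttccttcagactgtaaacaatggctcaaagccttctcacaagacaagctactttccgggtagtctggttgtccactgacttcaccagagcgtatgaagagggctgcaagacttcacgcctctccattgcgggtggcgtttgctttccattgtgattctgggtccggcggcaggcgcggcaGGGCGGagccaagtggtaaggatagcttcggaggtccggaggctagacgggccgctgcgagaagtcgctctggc
Cox8b: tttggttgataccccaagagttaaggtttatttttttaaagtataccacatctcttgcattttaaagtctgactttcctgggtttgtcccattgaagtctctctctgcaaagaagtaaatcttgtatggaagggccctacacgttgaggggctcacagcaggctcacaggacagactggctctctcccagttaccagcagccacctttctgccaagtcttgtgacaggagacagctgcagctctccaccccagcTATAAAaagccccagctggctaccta
Cox7a1: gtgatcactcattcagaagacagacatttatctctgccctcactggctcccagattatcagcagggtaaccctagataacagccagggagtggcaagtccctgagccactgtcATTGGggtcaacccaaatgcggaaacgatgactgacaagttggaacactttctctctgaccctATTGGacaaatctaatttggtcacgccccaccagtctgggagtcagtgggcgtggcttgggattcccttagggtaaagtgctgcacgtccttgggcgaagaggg

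The Cox6a1 stretch held matches to the NRF-1 motif beginning 162 and 117 bases before the start, an ETS match 16 bases before it, a CCAAT box and a pair of GC boxes. The Cox8a stretch held an ETS match 5 bases before the start and a CCAAT box. The Cox7a2 stretch held a GC box alone, that of Cox8b held a TATA box match beginning just after the annotated start, and that of Cox7a1 held a pair of CCAAT boxes. No NRF-1 or ETS match lay in the Cox7a2, Cox8b or Cox7a1 windows.

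RefSeq promoters of 300 bases (250 before the start and 50 after it) were found for 69 of the 84 members and 27025 genes in all. The NRF-1 motif, bound by a nuclear factor known for its action on respiratory genes, was in 17 of the 69 member promoters (24.6%), against 5.19% of all promoters. The ETS motif was in 16 (23.2%, against 9.93% of all), and 29 promoters held at least 1 of these motifs and 4 held both. The CCAAT box was in 44.9% of member promoters against 41.1% of all, the GC box in 40.6% against 38.2%, the TATA box in 10.1% against 15.7%, and the oestrogen-related receptor half-site in 3 (4.35%) against 1.43%. NRF-1 matches fell in 7 of 32 complex I promoters, 2 of 3 in complex II, 1 of 5 in complex III, 1 of 13 in complex IV and 6 of 16 in complex V. The median difference between genotypes was -0.11 over the 17 tested members with the NRF-1 motif and -0.07 over the 51 without it, and it was -0.06 over the 16 with the ETS motif and -0.10 over the 52 without. These are descriptions of matching letters, and binding was not measured.

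Of the 84 members 82 were above background on both arrays of a group and were tested, and 0 were called in either direction by limma, against 1.73% of all features (0.967% called higher and 0.759% called lower). At an unadjusted p under 0.05 there were 5 members (6.10%, against 19.0% of all features), namely Cox7a2l, Ndufb11, Cox8b, Cox7a1 and Atp5d, and the lowest adjusted p was 0.143. The remaining members, Cox8c and Cox7b2, isoforms used in testis, were not well above background on any array. Without the 4 genes matched by name alone, 78 were tested and 0 were called. In bulk samples, fewer cells of a type and less RNA per cell cannot be told apart.

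The differences were small and mostly below 0. The median over the 82 members was -0.07, against -0.02 over all features, with 59 members below 0 and 23 above. The median size of the difference, regardless of sign, was 0.10 for members and 0.21 for all features, and the median SE was 0.10 and 0.18. The 95% interval of the difference lay within 1.5-fold either way for 75 of 82 members (91.5%), against 39.7% of all features. Members were bright, with array medians of 4.94, 4.79, 4.72 and 4.73 in the order wild-type 1 and 2, transgenic 1 and 2, against -0.43 to -0.40 over all features, and the share of narrow intervals was not adjusted for brightness. The groups did not overlap for 27 members (32.9%), 22 with the transgenic arrays lower and 5 with them higher, against 53.1% of all features.

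**Figure D1:**
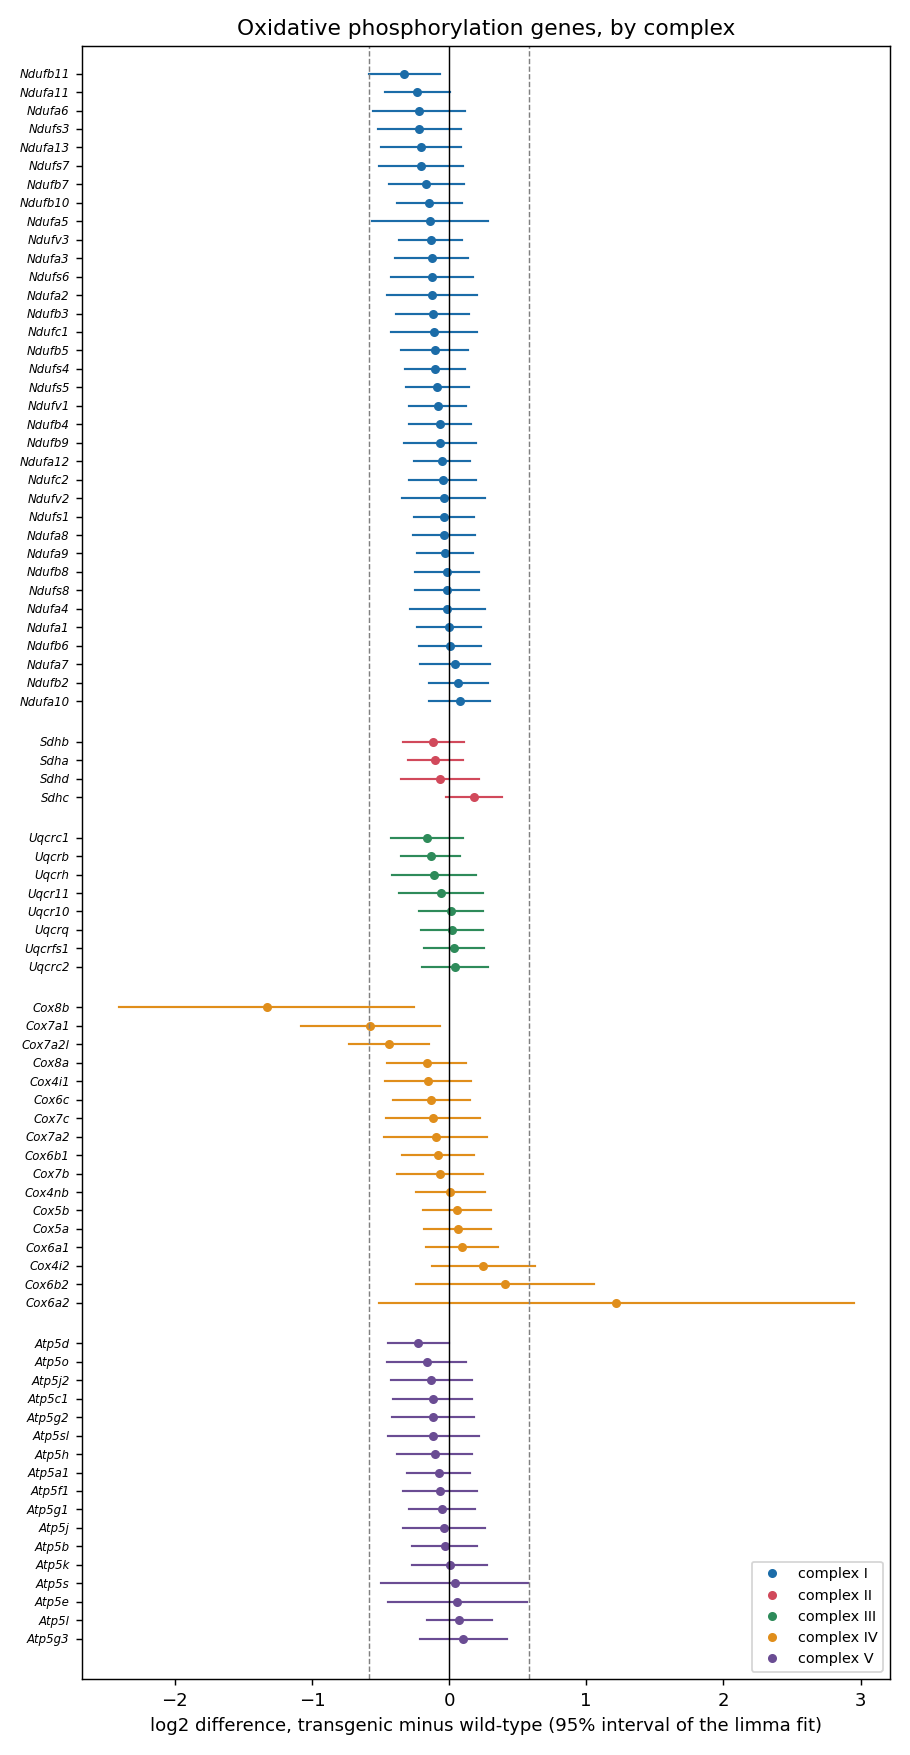
Log2 difference between transgenic and wild-type samples (x axis) for the tested members (y axis), coloured by complex. Bars are the 95% interval of the limma fit, and the member not reported individually is left out. Dashed lines mark 1.5-fold either way; the points cluster between -0.33 and 0.25 except Cox8b, Cox7a1 and Cox7a2l below and Cox6b2 and Cox6a2 above.

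Much of the shift below 0 came with wild-type array 1. That array was above wild-type array 2 for 74 of 82 members (90.2%, against 52.6% of all features), among them 35 of 36 in complex I and 16 of 17 in complex V. The median gap between the wild-type arrays was 0.18 for members and 0.02 for all features, while the median gap between transgenic array 1 and 2 was -0.01. The gap within the wild-type group was thus larger than the median difference of -0.07 between genotypes.

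Without wild-type array 1, the median difference of the members was 0.02, with 36 below 0 and 46 above, and 0 were called, against 4.96% of all features. Without wild-type array 2 it was -0.17, with 71 below 0 and 11 above, and 6 members (7.32%, against 15.7% of all features) were called lower. They were Cox7a2l at -0.56 (adjusted p = 0.0241), Cox7a1 at -0.85 (0.0262), Ndufb11 at -0.42 (0.0337), Ndufa5 at -0.38 (0.0403), Ndufs7 at -0.35 (0.0459) and Ndufa6 at -0.39 (0.0497). Without transgenic array 1 the median was -0.06 and Cox8b alone was called, at -1.99 (adjusted p = 0.0357, against 0.352% of all features called). Without transgenic array 2 the median was -0.08 and 0 were called, against 0.437% of all features. In these fits the lone sample of a group is assumed to vary like the other group.

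**Figure D2:**
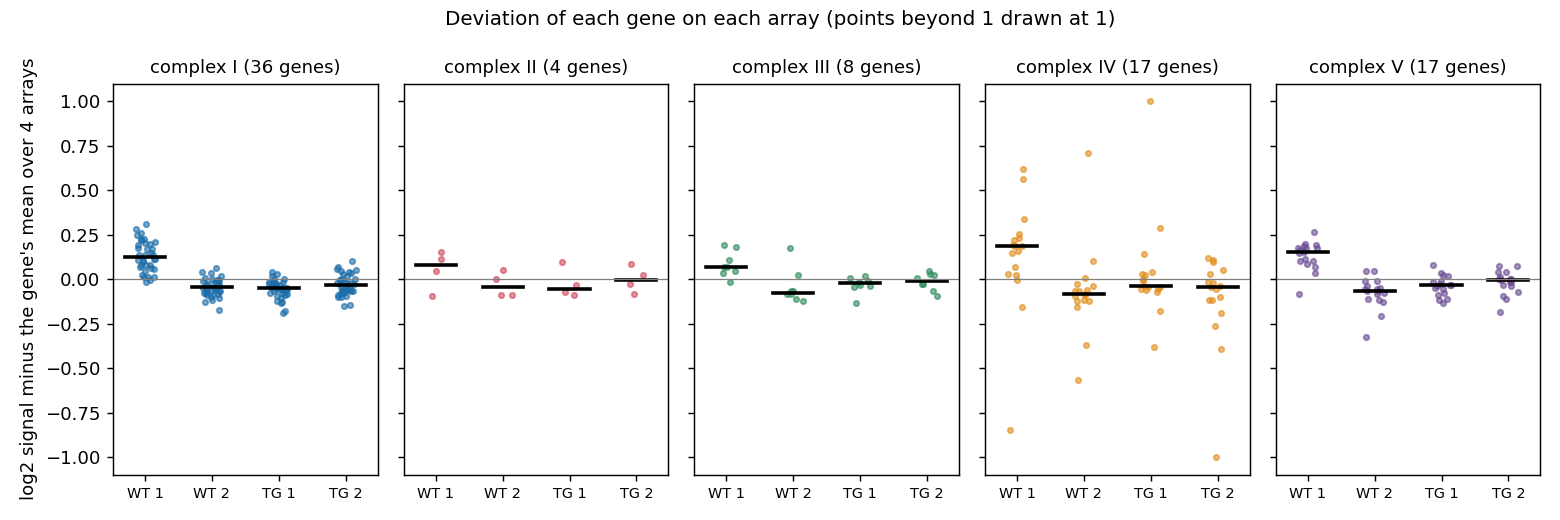
Each point is a gene's log2 signal on an array minus the gene's mean over the 4 arrays (y axis), by array (x axis) and complex (panels); the black bar is the median and points beyond 1 are drawn at 1. The median of wild-type array 1 lies above those of the other 3 arrays in each complex, and those 3 lie close together.

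Complex I, which oxidises NADH, had 36 tested members with a median difference of -0.08, 30 of them below 0, and 35 had an interval within 1.5-fold. The 7 core subunits, which carry the flavin and iron-sulphur centres or lie beside the quinone site, had a median of -0.04, with Ndufs3 lowest at -0.22. The 28 accessory subunits, which hold the assembly together, ranged from -0.33 (Ndufb11) to 0.08 (Ndufa10) with a median of -0.10, and all 28 were higher on wild-type array 1 than on wild-type array 2.

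Ndufb11, an accessory subunit of the membrane arm encoded on the X chromosome (probe at chrX:20192453-20192512 on mm9), read 6.45 and 6.25 on the wild-type arrays and 6.01 and 6.04 on the transgenic arrays. Both transgenic arrays lay below both wild-type arrays. The difference was -0.33 ± 0.10 (SE, n = 2 per group), with an adjusted p of 0.192, and its 3 probes ran from -0.45 to -0.33.

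Ndufa11, a membrane-arm subunit (chr17:56857241-56857300), read 3.27 and 3.11 in wild-type and 2.94 and 2.98 in transgenic samples. Its groups were apart in the same direction, with a difference of -0.23 ± 0.09 and an adjusted p of 0.273. Ndufs3, a core subunit near the quinone site (chr2:90734793-90734852), read 4.98 and 4.74 in wild-type against 4.56 and 4.73 in transgenic samples. Wild-type array 2 and transgenic array 2 read nearly the same, and the difference was -0.22 ± 0.12 (adjusted p = 0.385). Ndufa10, the highest of the complex, read 2.41 and 2.31 against 2.43 and 2.45, a difference of 0.08 ± 0.09 (adjusted p = 0.673).

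Complex II, succinate dehydrogenase, feeds electrons from the tricarboxylic acid cycle and has no mitochondrially encoded subunit. The median of its 4 members was -0.08 and each interval lay within 1.5-fold. Sdhc, a membrane anchor at the quinone site (chr1:173059539-173059598), read 3.11 and 3.12 in wild-type and 3.30 and 3.29 in transgenic samples. Its replicates lay close together and its groups were apart, with the transgenic arrays higher, yet the difference of 0.18 ± 0.08 had an adjusted p of 0.300, and its other probe gave a difference of 0.07.

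The values of the catalytic head were close between genotypes. Sdha, the flavoprotein (chr13:74460310-74460369), read 3.91 and 3.92 against 3.79 and 3.84, a difference of -0.10 ± 0.08 with an adjusted p of 0.533. Sdhb, the iron-sulphur subunit (chr4:140535052-140535108), read 5.65 and 5.54 against 5.50 and 5.45, a difference of -0.11 ± 0.09 with an adjusted p of 0.529. Both had groups apart with the transgenic arrays lower, and a further Sdhb probe gave a difference of 0.07. Of all features 28.6% had groups apart in that direction and 24.5% in the other. The other anchor, Sdhd, differed by -0.07.

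Complex III carries electrons from ubiquinol to cytochrome c, and its 8 members were spread evenly, 4 below 0 and 4 above, with a median of -0.02. Uqcrc1, a core protein (chr9:108851008-108851487), read 3.29 and 3.48 in wild-type and 3.17 and 3.28 in transgenic samples, a difference of -0.16 ± 0.10 (adjusted p = 0.449). It was among the 8 members that were lower on wild-type array 1 than on wild-type array 2. Uqcrc2, the other core protein, read 4.19 and 4.01 against 4.14 and 4.15, with overlapping groups and a difference of 0.04 ± 0.10 (adjusted p = 0.843). Uqcrb, which binds ubiquinone, read 4.92 and 4.84 against 4.78 and 4.72, a difference of -0.13 ± 0.09 (adjusted p = 0.447), and its 3 probes ran from -0.30 to -0.08. Uqcrh, the hinge protein, read 6.81 and 6.54 against 6.58 and 6.56, and only wild-type array 1 stood above the rest.

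Complex IV, cytochrome c oxidase, reduces oxygen, and several of its nuclear subunits come as a broadly used isoform and a tissue-restricted one. The 10 broadly used subunits ranged from -0.16 (Cox8a) to 0.09 (Cox6a1), with a median of -0.09 and all 10 intervals within 1.5-fold. The 5 tested tissue-restricted isoforms ranged from -1.33 (Cox8b) to 1.22 (Cox6a2), and 0 of the 5 had an interval within 1.5-fold. They made up most of the 7 members with wider intervals, beside Ndufb11 and Cox7a2l. Of these 5 probes 4, all but that of Cox7a1, read near or below the 75th percentile of their arrays.

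Cox8b, an isoform of the smallest subunit found in heart, skeletal muscle and brown fat (chr7:148084852-148084911 on mm9, minus strand), read 0.11 and 0.19 in wild-type samples and -0.52 and -1.84 in transgenic samples. Both transgenic arrays lay below both wild-type arrays, but they differed from each other by more than the first did from wild-type. The difference was -1.33 ± 0.43, or 2.52-fold lower, with a 95% interval from -2.41 to -0.26 and an adjusted p of 0.193. It was -0.67 without transgenic array 2 (adjusted p = 0.307) and -1.99 without transgenic array 1. Its counterpart Cox8a (chr19:7289652-7289708) read 6.99 and 6.77 against 6.75 and 6.68, a difference of -0.16 ± 0.11 (adjusted p = 0.479).

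Cox7a1, the isoform of subunit 7a in heart, muscle and brown fat (chr7:30970337-30970948), read 2.47 and 1.92 in wild-type and 1.53 and 1.72 in transgenic samples. The groups were apart, with wild-type array 1 well above the other 3 arrays. The difference was -0.57 ± 0.20, 1.49-fold lower, with a 95% interval from -1.08 to -0.07 and an adjusted p of 0.220, and it was -0.29 without wild-type array 1. Its counterpart Cox7a2 (chr9:79603215-79603274) read 4.63 and 4.22 against 4.32 and 4.34, with overlapping groups and a difference of -0.10 ± 0.15 (adjusted p = 0.755).

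Cox6a2, the heart and muscle isoform of subunit 6a (chr7:135349160-135349219), read -4.88 and -4.40 in wild-type and -2.42 and -4.42 in transgenic samples. Transgenic array 1 alone was high, and the probe was well above background on 1 of the 2 wild-type arrays and on both transgenic arrays. The difference of 1.22 ± 0.69 had an interval from -0.51 to 2.95 and an adjusted p of 0.395, and it was 0.22 without transgenic array 1 and 0.05 with normexp background correction. Its counterpart Cox6a1 (chr5:115795726-115795785) read 8.09 and 8.01 against 8.14 and 8.15, a difference of 0.09 ± 0.10 (adjusted p = 0.663).

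Cox4i2, the isoform of subunit 4 known from lung (chr2:152590711-152590770), read -1.28 and -1.22 in wild-type and -0.98 and -1.02 in transgenic samples. The groups were apart with the transgenic arrays higher, and the difference of 0.25 ± 0.15 had an adjusted p of 0.420. The common isoform Cox4i1 read 6.89 and 6.61 against 6.61 and 6.57, a difference of -0.16 ± 0.12 (adjusted p = 0.533). Cox6b2, used in testis, read 0.19 and -0.54 against 0.32 and 0.14, a difference of 0.41 ± 0.26 (adjusted p = 0.439) with a wide gap between the wild-type arrays. Its counterpart Cox6b1 read 2.82 and 2.61 against 2.63 and 2.64, and Cox7b read 5.64 and 5.33 against 5.40 and 5.44, with differences of -0.08 and -0.07.

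**Figure D3:**
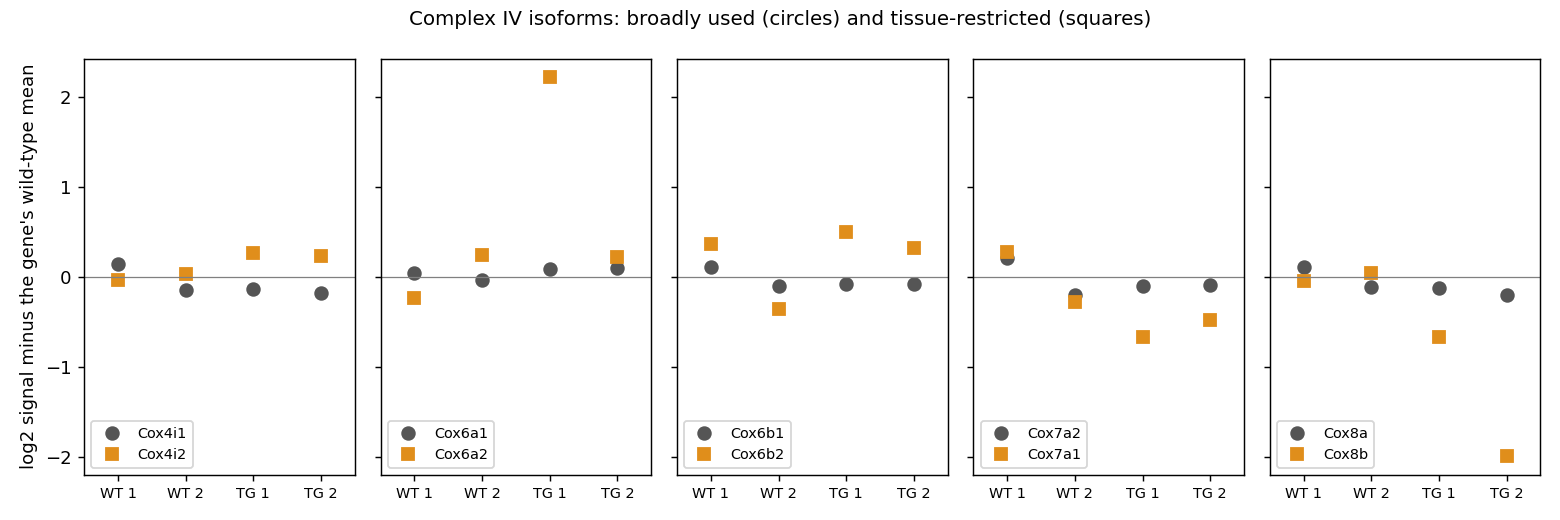
Log2 signal minus the gene's wild-type mean (y axis) on each array (x axis) for 5 pairs of complex IV isoforms, with the broadly used isoform as a grey circle and the tissue-restricted isoform as an orange square. The circles stay close to 0, while Cox8b lies below 0 on both transgenic arrays and Cox6a2 is high on transgenic array 1 alone.

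Cox7a2l, the factor that joins complex III to complex IV (chr17:83901272-83901331), had the smallest adjusted p of the members. It read 6.73 and 6.49 in wild-type and 6.21 and 6.13 in transgenic samples. Both transgenic arrays were below both wild-type arrays by more than the gap within either group. The difference was -0.44 ± 0.12, 1.36-fold lower, with a 95% interval from -0.73 to -0.15 and an adjusted p of 0.143. Its 3 probes gave -0.44 to -0.37, and without wild-type array 1 the difference was -0.32.

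Complex V had 17 tested members with a median of -0.07 and all 17 intervals within 1.5-fold. The F1 head, where ATP is made, ranged over its 5 subunits from -0.22 (Atp5d) to 0.06 (Atp5e), and the 4 subunits of the peripheral stalk, which holds the head still, ranged from -0.16 (Atp5o) to -0.04 (Atp5j). Atp5d, the delta subunit of the central stalk (chr10:79608230-79608289), read 4.98 and 4.85 in wild-type and 4.69 on both transgenic arrays. The groups were apart, and the difference of -0.22 ± 0.09 had an adjusted p of 0.260; it was the sole member of complex V whose groups did not overlap (5.88% of 17, against 53.1% of all features). Atp5o, which ties the head to the stalk, read 4.22 and 4.04 against 4.07 and 3.86, with overlapping groups and a difference of -0.16 ± 0.11 (adjusted p = 0.485).

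The ring of c subunits, which turns as protons pass, is made from a single protein encoded by 3 genes. Atp5g1 read 5.74 and 5.58 against 5.59 and 5.62, a difference of -0.05 ± 0.10 (adjusted p = 0.800). Atp5g2 read 6.48 and 6.25 against 6.17 and 6.32, a difference of -0.12 ± 0.12 (adjusted p = 0.629). Atp5g3 read 6.23 and 5.93 against 6.16 and 6.21, a difference of 0.10 ± 0.13 (adjusted p = 0.694). In all 3 genes the groups overlapped and wild-type array 1 was above wild-type array 2. Atp5j2, the f subunit in the membrane, read 6.29 and 6.02 against 6.03 and 6.02, where again wild-type array 1 alone was high.

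Probes of the same gene mostly gave close values. Of the 119 member probes 117 were tested and 0 were called, against 1.75% of all probes, with a lowest adjusted p of 0.141. Over the 25 genes with several tested probes, the median spread of the differences was 0.07. Probes differed in sign for 4 genes: Ndufb5 (-0.10 to 0.17), Cox7c (-0.12 to 0.09), Sdhb (-0.11 to 0.07) and Atp5l (-0.03 to 0.08). The Cox5b probe used is placed by the design on another chromosome than the gene. No member probe was saturated.

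Genes that make or regulate the chain, and related metabolic genes such as glycolytic and antioxidant enzymes, were read from 13 lists. These held 150 tested genes, of which 2 were called higher and 0 lower. Of all features 1.73% were called, 0.967% higher and 0.759% lower, and 2 calls are too few to compare with these shares. The mitochondrially encoded subunits, which assemble with the nuclear ones, had 12 tested genes and 0 calls, with a median of 0.01 and a range from -0.41 (mt-Nd6) to 0.27 (mt-Nd4). mt-Nd4 read 6.03 and 6.05 in wild-type and 6.26 and 6.36 in transgenic samples (adjusted p = 0.206), whereas mt-Nd2, also of complex I, read 5.99 and 5.96 against 5.73 and 5.77 (difference -0.23, adjusted p = 0.243). The probes of 5 of the 12 genes are placed by the design on a nuclear chromosome, and signal from a nuclear copy cannot be told apart there.

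The median differences of the assembly factors were -0.06 over 13 for complex I, -0.18 over 4 for complex II, all 4 below 0, 0.04 over 7 for complex III and cytochrome c, 0.01 over 19 for complex IV, and 0.08 over 3 for complex V, with 0 called. Timmdc1, an assembly factor of the complex I membrane arm, read 3.56 and 3.05 in wild-type against 2.74 and 2.73 in transgenic samples (difference -0.57 ± 0.17, adjusted p = 0.181). Sco2, a copper chaperone of complex IV, differed by -0.37 ± 0.10 (adjusted p = 0.150), and Uqcc2, of complex III, differed by -0.31 ± 0.10 (adjusted p = 0.188). These 3 are named because each had the smallest p of its list. In all 3 the groups were apart with the transgenic arrays lower, as they were for 28.6% of all features. Other members of these lists had groups apart in both directions, such as Ndufaf1 lower and Ndufaf4 higher.

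Of 18 regulators of mitochondrial biogenesis 15 were tested and 0 were called, with a median of -0.10, and the coactivators Ppargc1a and Ppargc1b and the receptor Esrrg were not above background on both arrays of a group. Polg2, a subunit of the mitochondrial DNA polymerase, read 2.66 and 2.42 against 2.11 and 1.60 (difference -0.68 ± 0.19, adjusted p = 0.160). Nrf1, the factor whose motif is shown in the Cox6a1 promoter, read 1.31 on both wild-type arrays and 1.08 and 1.07 on the transgenic arrays (difference -0.24 ± 0.10, adjusted p = 0.265). The medians of the enzyme lists were -0.03 over 17 for the tricarboxylic acid cycle, 0.02 over 15 for fatty acid oxidation, 0.07 over 13 for import and chaperones, and -0.12 over 9 for antioxidant enzymes, each with 0 called.

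Both calls lay outside the chain itself. Hk2, hexokinase 2, which commits glucose to glycolysis, read 4.32 and 4.30 in wild-type and 4.84 and 4.99 in transgenic samples. It was 1.53-fold higher (log2 difference 0.61 ± 0.09, adjusted p = 0.0492), the 1 call among 14 glycolytic genes, whose median was 0.05. Ucp3, a mitochondrial carrier related to Ucp1, read 1.06 and 1.22 against 1.97 and 1.92 and was 1.75-fold higher (log2 difference 0.81 ± 0.10, adjusted p = 0.0407), the 1 call among 9 uncoupling proteins and carriers. Its neighbour Ucp2 read 1.14 and 1.33 against 2.10 and 1.92 and missed the threshold (0.77 ± 0.12, adjusted p = 0.0541). The glycolytic list held 0 calls under 6 of 16 alternative settings and the carrier list under 4 of 16, among them the median shift and the fits without either transgenic array.

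Markers of other cell types differed between the groups beside these values. Of 10 mature adipocyte markers 8 were tested and Fabp4, a fatty acid binding protein, was called higher (log2 difference 2.24 ± 0.11, adjusted p = 0.0128), with a median of 1.65. Differences were above 0 for 7 of the 8, while Pnpla2 differed by -0.20 (adjusted p = 0.455) with overlapping groups. Retn and Lipe were well above background on 1 of the 2 wild-type arrays and passed the filter through the transgenic arrays alone. The summed level of the 8 tested markers, relative to the 75th percentile, was 26.4 and 32.0 in wild-type and 111 and 123 in transgenic samples. Fabp4 made up 69.8% to 84.2% of it. Lep and Cidec were not above background on both arrays of a group. Of 9 macrophage and myeloid markers 8 were tested and 4 called higher, among them Cd74 at 3.21 ± 0.14, with a median of 1.68. Among the calls, Lyz2 was well above background on 0 of the 2 wild-type arrays, and Ptprc and Mrc1 on 1 of 2. These passed the filter through the transgenic arrays alone, as did Adgre1 (0 of 2), which was not called. Itgam, which differed by -0.07, made up 75.7% to 87.0% of the summed level on each array, and the other 7 summed to 9.12 and 7.24 in wild-type and 13.2 and 14.2 in transgenic samples. Of the smooth muscle and pericyte markers 2 of 5, Acta2 and Rgs5, were called higher, while Des was lower with groups apart (-0.33). Rgs5 was well above background on 0 of the 2 wild-type arrays. Summed levels were 1.04 and 0.97 in wild-type against 2.69 and 2.70 in transgenic samples. Acta2 made up 26.0% and 26.4% of them in wild-type and 57.3% and 61.8% in transgenic samples. The rest summed to 0.77 and 0.71 against 1.15 and 1.03. The part of these cells in the results on subunits was not tested.

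Brown and beige adipocyte markers, relevant to Cox8b and Cox7a1, had 6 of 10 tested and 0 called, with a median of 0.00 and summed levels of 4.09 and 3.87 in wild-type against 3.94 and 3.72 in transgenic samples, of which Tnfrsf9 made up 71.9% to 77.0%. Ucp1, Ppargc1a, Elovl3 and Otop1 were not above background on both arrays of a group. Dio2, the enzyme that activates thyroid hormone, read -1.75 and -1.84 against -2.62 and -2.51 (difference -0.77 ± 0.19, adjusted p = 0.132), and Cidea, a lipid droplet protein, read -2.21 on wild-type array 1 and -3.84 to -3.67 on the others. Both differences were below 0, and those of the other 4 tested markers were above 0. Among these 4, Prdm16 (0.26) and Zic1 (0.15) had groups apart with the transgenic arrays higher, as had 24.5% of all features. Zic1 was well above background on 1 of the 2 wild-type arrays and passed the filter through the transgenic arrays alone. Of 7 skeletal muscle markers 2 were tested, with 0 called, and Ckm, Myh1, Myh4, Mylpf and Myod1 were not above background on both arrays of a group. Of 7 endothelial markers 0 were called, with a median of 0.93, 5 above 0 and 2 below. Cdh5 stood at 2.46 (adjusted p = 0.0639) and Vwf at 2.20 (adjusted p = 0.0591). Below 0 were Tek, with groups apart, at -0.51 (adjusted p = 0.0765), and Kdr at -0.28. Cdh5 and Tie1 were well above background on 1 of the 2 wild-type arrays and Emcn on 0. The summed endothelial level was 22.1 and 17.2 in wild-type and 16.3 and 15.6 in transgenic samples. Of 2 tested erythroid markers 0 were called, with a median of 0.97. Of 4 lymphocyte markers Cd3d, not well above background in the wild-type samples, was called higher (at least 3.34-fold, adjusted p = 0.0283), while Cd3e differed by -1.01 (adjusted p = 0.162). Of 4 Schwann cell markers Mbp was called lower (-0.63, adjusted p = 0.0499), while S100b differed by 0.88 (adjusted p = 0.0719).

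**Figure D4:**
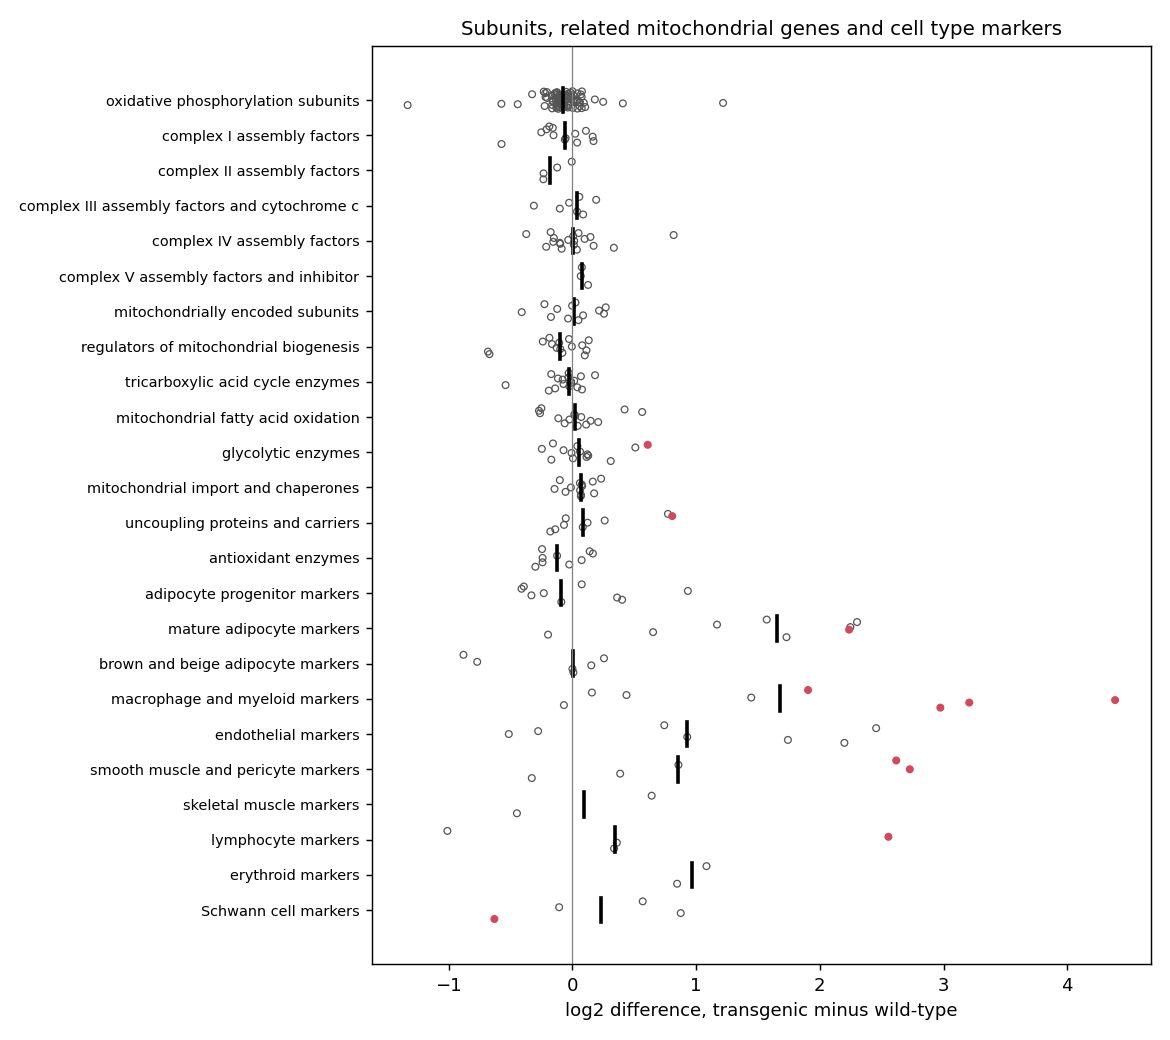
Log2 difference between transgenic and wild-type samples (x axis) for the tested genes of each list (y axis); filled red points were called at an adjusted p under 0.05 and the black bar is the median. The subunits and the other mitochondrial lists lie around 0, and the mature adipocyte and the macrophage lists have medians of 1.65 and 1.68.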

How the data were processed

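RNA of the 4 samples (2 wild-type, 2 transgenic) was isolated with a Qiagen RNeasy micro kit, labelled with Cy3 and hybridised to Agilent arrays, per the labels' protocols. The scanner software was Agilent Feature Extraction 10.7.3.1 and the design 028005, with mm9 probe coordinates, per the file headers. All 4 arrays shared 1 slide and 1 scan. The processed intensity that the authors deposited is background-subtracted and detrended, per the file headers. The raw intensities in those files served the normexp alternatives (offset 50). A further table deposited by the authors has log2 values, whose making the sources used here do not give. They correlated at 0.99999 on each array with scanner values centred per probe, and column medians were 0.193, -0.0209, -0.0454 and 0.0191.

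Control and outlier spots were dropped, spots of a probe were averaged, and each array's 75th percentile of log2 signal over non-control spots was subtracted. Symbols came from a RefSeq table (GRCm38.p6, names only) by accession, which named 26582 of 55681 probes. For each gene the probe with the highest mean was used, tested if well above background on both arrays of at least 1 group, which favours a rise in that group. Exon annotation on mm9 was not used here. limma 3.58.1 in R 4.3.3 compared the groups (lmFit, eBayes with trend, 2-sided, residual degrees of freedom 2, prior 3.34) with Benjamini-Hochberg adjustment over 24518 features. The median SE was 0.18, and the number of arrays limits the precision. The fit was tested on simulated data. Members, gene lists, tests and alternatives were chosen with earlier results of these data known. Named members (31, of which 29 were tested) were, per complex, the 3 with the smallest p, the highest and the lowest, plus complex IV isoforms and c-subunit genes; per list, the 2 with the smallest p were eligible. Role groups within a complex, and other names, were chosen after values were seen. The values of 1 member are not reported individually here.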

Additional observations from a re-analysis of the deposited data

How the results depend on the processing

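Over the 16 alternatives, 0 members were called except without wild-type array 2 (6 lower) and without transgenic array 1 (1 lower), so that leaving out a sample gave 0 to 6 calls. The count of all features called, 423, was 695 with no filter on dim probes, 774 with a replicate block, 0 with no intensity trend (limma, 4124 features at an unadjusted p under 0.05) and 90 to 3998 with a sample left out. The share of those calls that were higher ran from 37.6% to 81.6% with a sample left out, and from 46.8% to 65.2% under the scaling and filter alternatives, against 56.0%. The members' median, -0.07, was 0.00327 with quantile normalization and -0.172 to 0.0232 with a sample left out, and 15 of 17 settings gave a value below 0. The 17 include the main fit. They also include the fit with no intensity trend and the replicate and crossed blocks, which cannot change a difference or its sign. Relative to all features the members' median was -0.0561, but 0.0592 with normexp correction, 0.121 with no filter on dim probes and 0.0540 without wild-type array 1. With a sample left out the medians ran from -0.163 to -0.00623 for complex I, -0.134 to -0.00314 for complex II, -0.0645 to 0.0792 for complex III, -0.222 to 0.0574 for complex IV and -0.183 to 0.0199 for complex V; complex II was -0.00146 with each probe as a feature, and complex III was 0.0621 with quantile normalization and 0.0592 with normexp added. Signs turned with normexp correction for Atp5g1 (0.0122), with normexp and quantile for Atp5g1 (0.0390), Atp5g2 (0.0320), Cox7b (0.0129) and Uqcrh (0.0702), and with quantile alone for Atp5g1 (0.0185), Atp5g2 (0.0337), Cox4i1 (0.0101), Cox7b (0.0198) and Uqcrh (0.0523). With a sample left out they turned for Atp5g1 (-0.131 to 0.0265), Atp5g3 (-0.0483 to 0.256), Atp5j2 (-0.263 to 0.00259), Cox6b1 (-0.186 to 0.0265), Cox7a2 (-0.304 to 0.107), Cox7b (-0.222 to 0.0888), Uqcrc2 (-0.0489 to 0.134) and Uqcrh (-0.246 to 0.0296). None of these members was called under those settings, and the causes were not tested. Of 463 values for named members 441 kept their sign and side of the threshold. The samples share only a number: same-numbered deviations correlated at 0.0032 over all features and -0.445 over members, and the replicate block called 0 members. A crossed block, added after seeing the data, called 465 features and 0 members. Of 736 list counts 79 moved by over 1.5 times.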
